A study of Mus musculus with 10 samples.

Results

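The integrated stress response genes driven by the transcription factor ATF4 were examined in fetal mouse liver that lacks the microRNA gene Mir483. The set comprised 10 genes, fixed by name: Atf4, Atf3, Ddit3, Trib3, Chac1, Asns, Psat1, Phgdh, Sesn2 and Fgf21. Their identifiers matched 11 of the 55401 gene rows of the count table, because Ddit3 has 2 rows. One of these, an annotated reading frame upstream of the main one, had 0 counts in all libraries, and the row holding the 1296 Ddit3 counts was used.

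Bulk mRNA sequencing had been carried out on livers of female fetuses at embryonic day E18.5, from 5 wild-type (WT) fetuses and 5 littermates that inherited a Mir483 deletion from the father (Mir483Pat-KO), 1 library for each fetus. Mir483 lies in an intron of the imprinted gene Igf2 and is expressed from the paternal copy, so that paternal transmission removes the active copy. The deletion is constitutive and therefore present in every cell of the fetus. It was made in C57BL/6N-derived embryonic stem cells, from which 2 independent clones were taken forward, and the mice were kept on a C57BL/6J background. The labels name no treatment for either group.

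ATF4 is the central effector of the integrated stress response. The kinases PERK, GCN2, PKR and HRI phosphorylate the translation initiation factor eIF2 in response to unfolded proteins, amino acid shortage, double-stranded RNA and haem shortage, respectively. General translation then falls, whereas translation of the Atf4 mRNA rises through its upstream reading frames. ATF4 protein activates genes for amino acid synthesis and uptake and, under prolonged stress, genes that limit the response or promote cell death. Because this control is partly translational, the amount of Atf4 mRNA is not a measure of ATF4 protein. In liver the hormone FGF21 is a secreted product of the pathway.

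The mature products of Mir483 are shown first, since their loss defines the comparison. The capitals mark the seed, bases 2 to 8, through which a microRNA pairs with its targets. Sequences are from RefSeq on GRCm38.p6, and both lie on the minus strand, miR-483-3p at chr7:142654932-142654952 and miR-483-5p at chr7:142654968-142654989.
mmu-miR-483-3p: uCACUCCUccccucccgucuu
mmu-miR-483-5p: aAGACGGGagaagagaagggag

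The longest annotated 3′ untranslated region of each of the 10 genes (GENCODE M21) was searched for the complement of either seed. A match to the miR-483-3p seed was found in 1 of the 10, in Sesn2 at chr4:132492952-132492978 on the minus strand, shown with the match in capitals. Of the 12870 tested genes with such a region, 12.6% held this 7-base match. No member held a match to the miR-483-5p seed, which 3.27% of the tested genes did.
Sesn2: ctgaagagtaAGGAGTGgctgttggtg

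The promoter windows of the members, from 250 bases before the RefSeq start to 50 after it, were searched on both strands for the 8-letter C/EBP-ATF response element TGATGNAA, the composite element through which ATF4 acts with C/EBP partners. The letters were found in 5 of the 10 genes, against 4.51% of all 27025 genes with a window. The matches lay at chr1:191183425-191183454 (minus strand) for Atf3, chr2:152344028-152344057 (minus) for Trib3, chr2:119351038-119351067 (plus) for Chac1, chr6:7693214-7693243 (minus) for Asns and chr7:45615611-45615640 (minus) for Fgf21. The windows are printed in the direction of each gene, with the element in capitals. In Asns the element read forward, 23 bases before the start. In the other four it read in reverse, and in Trib3 it lay 14 bases after the start.
Atf3: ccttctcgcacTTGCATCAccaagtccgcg
Trib3: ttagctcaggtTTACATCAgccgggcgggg
Chac1: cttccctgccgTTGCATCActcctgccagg
Asns: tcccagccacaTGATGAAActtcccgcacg
Fgf21: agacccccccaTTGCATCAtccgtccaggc

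A match describes the letters of the window, and binding was not measured. The members were chosen as ATF4 pathway genes, so their share of matches is no independent test. The genes without a match were Atf4, Ddit3, Psat1, Phgdh and Sesn2. In the lists of related pathway genes described further on, 13 of the 77 genes with a window (16.9%) held the element.

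The libraries held 10831350 to 14765880 counts. Mir483 itself, measured as fragments of its primary transcript, had 11, 10, 22, 21 and 12 counts in WT replicates 1 to 5 and 0 counts in each of the 5 Mir483Pat-KO libraries (edgeR quasi-likelihood F-test, Benjamini-Hochberg adjusted p = 0.00133), where a count of 0 allows up to 3 counts, or 0.197 to 0.271 counts per 1000000 (CPM). Across all genes, 731 of the 14098 tested (5.19%) passed an adjusted p of 0.05, of which 342 (2.43%) were higher and 389 (2.76%) lower in Mir483Pat-KO, and 173 (1.23%) also exceeded a 1.5-fold change. Each library label carries an identification number, and these numbers formed 2 ranges, a lower one with WT replicates 1 to 4 and Mir483Pat-KO replicates 1 and 2, and an upper one with WT replicate 5 and Mir483Pat-KO replicates 3 to 5. What the ranges stand for is not stated. Markers of the labelled tissue were present in every library. Hepatocyte markers were lower in 6 of 6 genes, 1 of which passed, with summed levels of 177783 to 199293 CPM in WT against 159558 to 184015 CPM in Mir483Pat-KO. Erythroid markers were higher in 8 of 9 genes, 2 of which passed, with sums of 15953 to 20575 CPM and 18670 to 26587 CPM. Stellate and mesenchymal markers were lower in 5 of 6 genes, none of which passed, with sums of 287 to 739 CPM and 291 to 531 CPM. Of 8 myeloid markers, 5 were higher and 3 lower, with sums of 1953 to 2781 CPM and 2351 to 2821 CPM. Clec4f of Kupffer cells was the 1 that passed, at −0.46 (adjusted p = 0.0416 by edgeR). The macrophage markers Cd5l, at 0.30 (adjusted p = 0.112), and Adgre1, at 0.10 (adjusted p = 0.43), pointed up. Endothelial markers were lower in 4 of 5 genes and megakaryocyte markers in 3 of 4, and none passed. Endothelial sums were 388 to 441 CPM and 338 to 422 CPM, and megakaryocyte sums 141 to 301 CPM and 163 to 226 CPM. No marker was at 0 in all libraries. In bulk tissue, fewer cells of a type and less RNA per cell cannot be told apart, and the part of these shifts in the results below was not tested.

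None of the members that passed the low-count filter changed by the adjusted p in Mir483Pat-KO liver. Chac1, which did not reach the filter, passed by edgeR when it was dropped (adjusted p = 0.025). Of the 10 genes, 8 passed the filter, and 0 of these 8 had an adjusted p under 0.05 by edgeR, DESeq2 or limma-voom, against 5.19% of all genes by edgeR. At an unadjusted p under 0.05, 1 of the 8 (Psat1) was counted, against 22.2% of all genes tested. Fitted differences pointed up for 4 genes and down for 4, and their median was 0.023 on the log2 scale, where the median over all genes tested was 0.0042. The WT and Mir483Pat-KO levels overlapped for all 10 genes, whereas 6.60% of the genes tested had groups that did not overlap. For 6 of the 8 genes the 95% interval of the difference lay within 1.5-fold in both directions (0.585 on the log2 scale). The exceptions were Atf3 and Trib3.

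**Figure D1:**
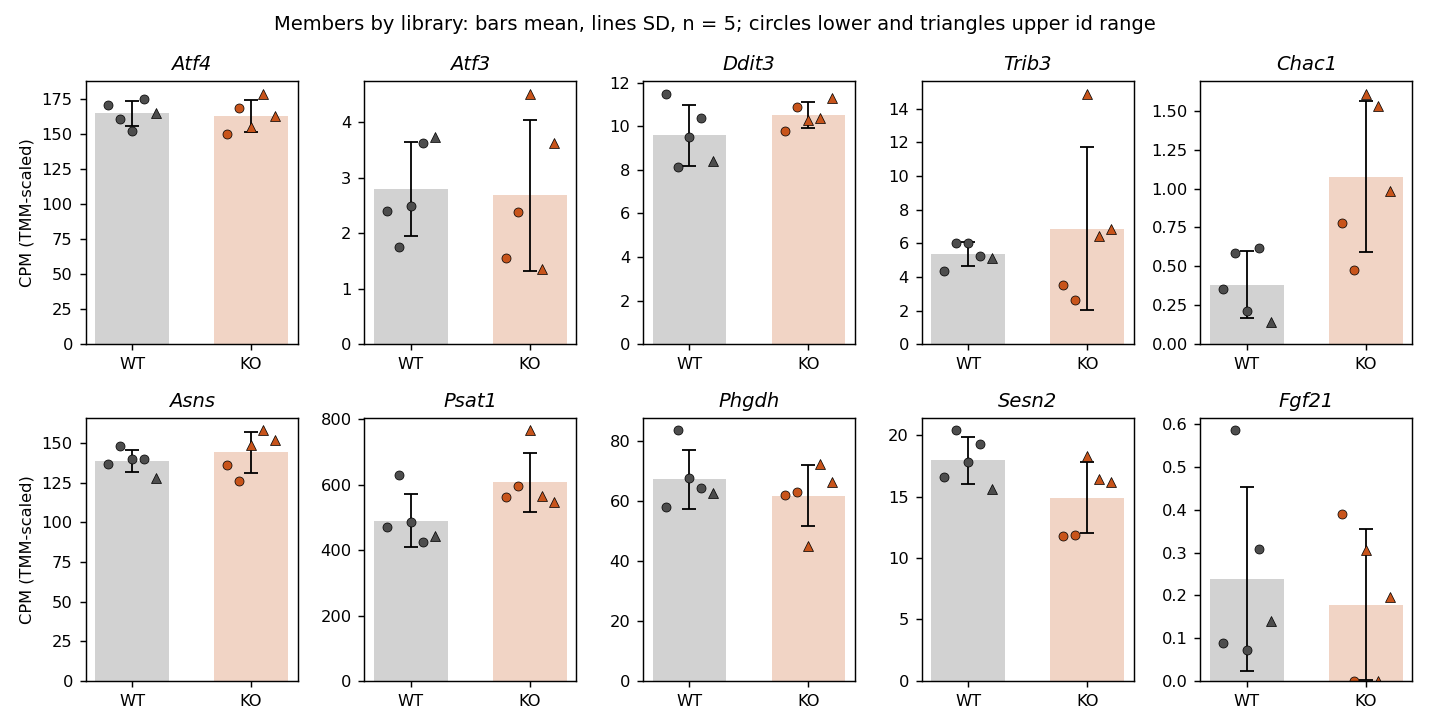
CPM of the 10 members in each library, with WT in grey and Mir483Pat-KO (KO) in orange. Bars are means and lines SD of 5 libraries, circles mark the lower identification number range and triangles those of the upper range. The groups overlap in every panel, and Mir483Pat-KO replicate 3 is the highest point for Trib3 (14.9 CPM) and Psat1 (767 CPM).

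The levels of the members in WT liver spanned a wide range when expressed as CPM per kilobase of exon. Psat1 was the most abundant at 115 ± 19 CPM per kilobase (SD, n = 5). It was followed by Atf4 at 69.9 ± 3.79, Asns at 50.6 ± 2.65 and Phgdh at 27 ± 3.94 CPM per kilobase. Each of these was separated from the next, since the lowest WT library of one lay above the highest of the following gene. Ddit3 (5.6 ± 0.829 CPM per kilobase) and Sesn2 (5.17 ± 0.568) came next, and their ranges overlapped, so that they did not differ beyond their spread. Trib3 (2.52 ± 0.329) and Atf3 (1.3 ± 0.394) were lower again and separate from each other. Fgf21 (0.251 ± 0.227) and Chac1 (0.234 ± 0.131) were at the limit of detection, and their ranges overlapped. The enzymes of serine and asparagine synthesis and Atf4 mRNA thus stood above the transcripts of CHOP and of the feedback and secreted factors.

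Atf4, the transcription factor at the head of the pathway, is encoded on chr15:80255184-80257541 (plus strand). Its levels in WT replicates 1 to 5 were 171, 161, 152, 175 and 165 CPM. In Mir483Pat-KO replicates 1 to 5 they were 150, 169, 155, 179 and 163 CPM. The groups overlapped almost entirely, with means of 165 ± 8.95 CPM and 163 ± 11.6 CPM (SD, n = 5 each). The fitted log2 difference was −0.013 (95% interval −0.16 to 0.13, adjusted p = 0.932 by edgeR), the most tightly bounded value among the members.

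Atf3, a stress-induced partner and repressor of ATF factors, had 2.4, 1.76, 2.5, 3.62 and 3.73 CPM in WT replicates 1 to 5 and 1.56, 2.38, 4.52, 1.35 and 3.62 CPM in Mir483Pat-KO. Both the highest and the lowest value belonged to Mir483Pat-KO libraries. Its log2 difference of −0.051 had a wide interval (−0.69 to 0.59, adjusted p = 0.943), so that a change of 1.5-fold in either direction could not be seen at this depth and spread. Ddit3, which encodes the pro-apoptotic factor CHOP, had 11.5, 8.13, 9.51, 10.4 and 8.39 CPM in WT against 9.76, 10.9, 10.3, 10.4 and 11.3 CPM in Mir483Pat-KO. The Mir483Pat-KO libraries lay inside the WT range, and the log2 difference was 0.13 (−0.1 to 0.37, adjusted p = 0.508). The exons of Ddit3 overlap those of the genes Mars and Gm4189 on the opposite strand over 4.73% of their length in all, and the strand setting of the counting is not given in the sources used here. On the same strand, 6.13% of their length is shared with the second Ddit3 row. The effect of either overlap on the counts was not tested.

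Trib3, a pseudokinase that feeds back on ATF4 and CHOP, had the largest coefficient of variation among the Mir483Pat-KO libraries of the 8 tested members. In WT it had 4.35, 6.03, 6.01, 5.24 and 5.14 CPM. In Mir483Pat-KO it had 3.51, 2.62, 14.9, 6.41 and 6.85 CPM, so that replicates 1 and 2 lay below every WT library and replicates 3 to 5 above every one. The coefficient of variation was 13% in WT and 70.6% in Mir483Pat-KO. The log2 difference was 0.36 (−0.34 to 1.06, adjusted p = 0.564), and without Mir483Pat-KO replicate 3 it was −0.15 (adjusted p = 0.765).

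Sesn2, which encodes the leucine sensor Sestrin 2, and which carried the miR-483-3p seed match shown above, had 16.6, 20.4, 17.8, 19.3 and 15.6 CPM in WT replicates 1 to 5. In Mir483Pat-KO replicates 1 to 5 it had 11.8, 11.9, 18.3, 16.4 and 16.2 CPM. Its mean was 18 ± 1.98 CPM in WT against 14.9 ± 2.93 CPM in Mir483Pat-KO (SD, n = 5 each). The log2 difference was −0.27 (−0.53 to 0.00041) with an unadjusted p = 0.0503 and an adjusted p = 0.226 by edgeR, and did not pass. It was −0.15 with GC content and length offsets (adjusted p = 0.569) and −0.65 in the lower identification number range (adjusted p = 0.0825). The median log2 difference of the 1618 tested genes with the same match was 0.013, and that of the genes without it −0.0028.

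Among the biosynthetic targets, Psat1, the aminotransferase of the serine pathway, had the largest shift relative to its error. Its WT levels were 470, 629, 486, 425 and 443 CPM. Its Mir483Pat-KO levels were 562, 595, 767, 566 and 548 CPM, all above 4 of the 5 WT libraries and 4 of them below WT replicate 2. The means were 491 ± 80.6 CPM and 608 ± 90.5 CPM (SD, n = 5 each). The log2 difference of 0.31 (0.074 to 0.54) corresponded to a 1.24-fold higher level, with an unadjusted p = 0.013 and an adjusted p = 0.114 by edgeR.

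The call of Psat1 depended on the fit. Its adjusted p was 0.0191 without the low-count filter, 0.0459 with the replicate number as a block and 0.0221 without WT replicate 2, where the log2 difference was 0.41. It was 0.278 without Mir483Pat-KO replicate 3 and 0.516 in the lower identification number range, and in both the log2 difference was 0.20. Over all alternatives with a fit the adjusted p ran from 0.0191 to 1. In the lower identification number range, WT libraries had 425 to 629 CPM and the 2 Mir483Pat-KO libraries 562 and 595 CPM. In the upper range the only WT library had 443 CPM, and the 3 Mir483Pat-KO libraries 548 to 767 CPM.

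Phgdh, which encodes the first enzyme of the same serine pathway, had 58.1, 83.6, 67.7, 64.2 and 62.6 CPM in WT against 62, 63.1, 45, 72.5 and 66.5 CPM in Mir483Pat-KO. The lowest library was Mir483Pat-KO replicate 3, in which Psat1 was highest. The log2 difference of Phgdh was −0.12 (−0.37 to 0.12, adjusted p = 0.57), and −0.038 without either Mir483Pat-KO replicate 3 (adjusted p = 0.864) or WT replicate 2 (adjusted p = 0.866). The difference between Psat1 and Phgdh was not tested. Asns, the asparagine synthetase and a classical ATF4 target, had 137, 148, 140, 140 and 128 CPM in WT against 136, 126, 149, 158 and 152 CPM in Mir483Pat-KO. Its log2 difference was 0.06 (−0.094 to 0.21, adjusted p = 0.671).

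**Figure D2:**
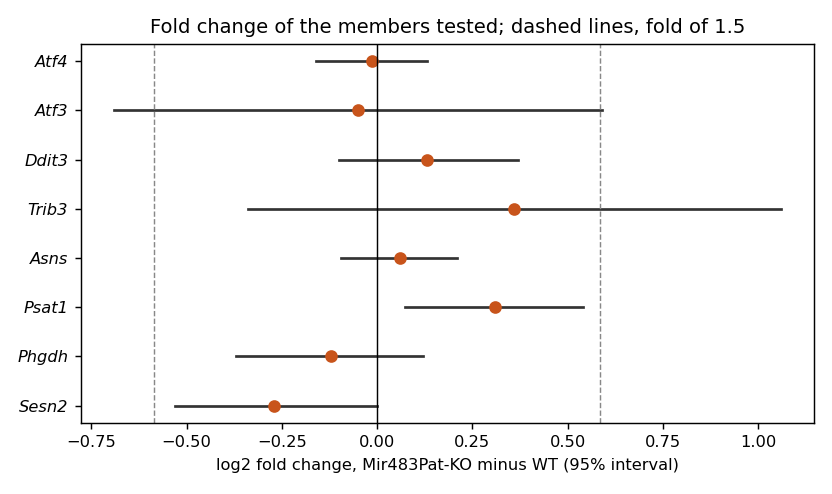
Fitted log2 fold change of the 8 tested members, Mir483Pat-KO minus WT, with 95% intervals. Dashed lines mark a 1.5-fold change. The interval of Psat1 (0.074 to 0.54) is the one that leaves out 0, the interval of Sesn2 ends at 0.00041, and those of Atf3 and Trib3 reach beyond a dashed line.

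Chac1 and Fgf21 did not reach the count filter. Chac1, a glutathione-degrading enzyme induced by ATF4, had 4, 7, 3, 8 and 2 counts in WT replicates 1 to 5. It had 10, 6, 21, 17 and 15 counts in the Mir483Pat-KO replicates. This was 0.383 ± 0.214 CPM in WT against 1.08 ± 0.487 CPM in Mir483Pat-KO (SD, n = 5 each), a difference of 0.695 CPM (two-sided exact permutation test, p = 0.0238, where 0.00794 is the smallest that 5 against 5 libraries can give), and Chac1 and Fgf21 were the 2 genes compared in this way. All Mir483Pat-KO libraries except replicate 2 lay above the highest WT library at 0.616 CPM.

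When the filter was dropped, Chac1 had a log2 difference of 1.49 (standard error 0.432) and passed (adjusted p = 0.025 by edgeR over 28428 genes, of which 4.43% passed). Leaving out each library in turn gave differences of 0.562 to 0.845 CPM, with exact permutation p from 0.0159 to 0.0476. In the lower identification number range, the WT libraries had 0.215 to 0.616 CPM and the Mir483Pat-KO libraries 0.781 and 0.476 CPM. In the upper range, the 3 Mir483Pat-KO libraries had 0.987 to 1.61 CPM against 0.141 CPM in its WT library. The difference rests on 2 to 21 counts per library.

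Fgf21 had 1, 7, 1, 4 and 2 counts in WT and 5, 0, 4, 0 and 3 counts in Mir483Pat-KO, so that 2 Mir483Pat-KO libraries had none. The means of 0.239 ± 0.215 CPM and 0.179 ± 0.177 CPM (SD, n = 5 each) differed by −0.0603 CPM (exact permutation test, p = 0.643). At this depth no difference in Fgf21 could be detected.

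For Trib3, Sesn2 and Asns the values of the Mir483Pat-KO libraries differed between the identification number ranges. In the lower range, both Mir483Pat-KO libraries were lower than each of the 4 WT libraries for Trib3 (3.51 and 2.62 against 4.35 to 6.03 CPM), Sesn2 (11.8 and 11.9 against 16.6 to 20.4 CPM) and Asns (136 and 126 against 137 to 148 CPM). In the upper range, all 3 Mir483Pat-KO libraries lay above the single WT library for the same genes, at 6.41 to 14.9 against 5.14 CPM, 16.2 to 18.3 against 15.6 CPM and 149 to 158 against 128 CPM. That WT library lay within the lower-range WT values for Trib3 and below each of them for Sesn2 and Asns. The difference between the ranges was fitted as an interaction term, chosen after these values were seen. By edgeR it was 1.69 ± 0.528 for Trib3, 0.77 ± 0.2 for Sesn2 and 0.37 ± 0.129 for Asns (log2 difference ± standard error). None passed the adjustment over 14098 genes, with adjusted p of 0.421, 0.323 and 0.473 by edgeR. At an unadjusted p under 0.05, these 3 of the 8 members and 8.04% of all genes were counted, and 0 genes passed the adjusted p. With 1 WT library in the upper range, the range and that fetus cannot be told apart there.

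Each tested member was expressed as log2 CPM minus the mean of its genotype, and all 28 pairs were correlated over the 10 libraries, with a two-sided exact permutation test within genotype (14400 arrangements). The coefficient was positive in 16 of the 28 pairs, with a median r of 0.0592. No pair passed the adjustment over 28 pairs by Pearson or Spearman coefficients, and 3 pairs had an unadjusted p under 0.05 by each. The closest pairs were Asns with Sesn2 (r = 0.879, exact p = 0.005, adjusted p = 0.0797; rho = 0.867, exact p = 0.00875, adjusted p = 0.123) and Trib3 with Sesn2 (r = 0.866, exact p = 0.00569, adjusted p = 0.0797; rho = 0.891, exact p = 0.00875, adjusted p = 0.123).

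Without the 2 libraries farthest from the median of the first gene, these coefficients were 0.831 and 0.841. Within the 6 lower-range libraries they were 0.597 and 0.52. After centring on genotype and range together they were 0.291 and 0.652. The remaining Pearson pair, Atf3 with Phgdh, was negative (r = −0.681, exact p = 0.0392, adjusted p = 0.366; rho = −0.515, exact p = 0.142, adjusted p = 0.795), and was −0.343 without its 2 farthest libraries. The remaining Spearman pair was Trib3 with Asns (rho = 0.794, exact p = 0.027, adjusted p = 0.252, and r = 0.689, exact p = 0.101, adjusted p = 0.673). Its r was 0.88 without Mir483Pat-KO replicate 3, 0.845 within the lower range and 0.00284 after centring on genotype and range. None of the 7 pairs with Atf4 mRNA passed. The largest coefficient among them was with Ddit3 (r = 0.435, exact p = 0.19, adjusted p = 0.758; rho = 0.564, exact p = 0.0986, adjusted p = 0.69), and that with Asns was 0.11. Some coefficients moved with the libraries and the centring used. Among Trib3, Asns, Psat1, Phgdh and Sesn2, a group chosen after the values were seen, 7 of the 10 pairs were positive over all libraries, and all 10 were without Mir483Pat-KO replicate 3 (r from 0.0249 to 0.933) and within the lower range (0.333 to 0.863). After centring on genotype and range, 8 of the 10 were positive (−0.548 to 0.701). Psat1 with Phgdh was −0.105 over all libraries, 0.765 without that library, 0.863 within the lower range and −0.135 after this centring. Phgdh with Sesn2 was −0.0159, 0.687, 0.84 and 0.0334 in the same order. Over all 28 pairs, 19 were positive without that library, 13 within the lower range and 14 after this centring. Atf4 with Trib3 had r = −0.193 (exact p = 0.678, adjusted p = 0.968). This was 0.0882 without Mir483Pat-KO replicate 3, −0.839 within the lower range and −0.737 after centring on genotype and range.

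**Figure D3:**
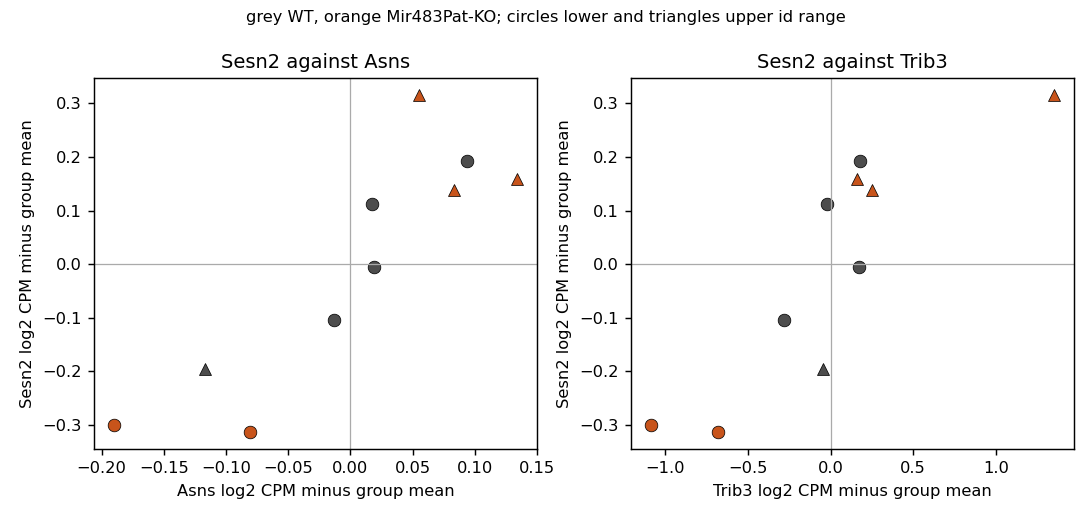
Sesn2 plotted against Asns (left) and Trib3 (right), each as log2 CPM minus the mean of its genotype, with WT in grey, Mir483Pat-KO in orange, circles for the lower and triangles for the upper identification number range. Mir483Pat-KO replicates 1 and 2 sit at the lower left and replicates 3 to 5 at the upper right, and the coefficients over the 10 libraries are 0.879 and 0.866.

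The genes whose library pattern was most like that of Asns, among 12483 genes outside the set with a mean of at least 1 on the log2 CPM scale, were Epn2 (r = 0.91), Trim37 (r = 0.894) and Hspbap1 (r = 0.893), over 10 libraries after centring on genotype. These are the highest of many coefficients that share the same libraries and scaling. None of the 3 belongs to the lists of pathway genes.

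The upstream kinases were measured in every library. Eif2ak3 (PERK), the endoplasmic reticulum kinase, had 28.1 ± 1.27 CPM in WT against 29.8 ± 2.39 CPM in Mir483Pat-KO (SD, n = 5 each; log2 difference 0.088, adjusted p = 0.53 by edgeR). Eif2ak4 (GCN2), the sensor of uncharged tRNA, had 41.4 ± 4.95 CPM and 38.1 ± 1.88 CPM (log2 difference −0.12, adjusted p = 0.406). Eif2ak1 (HRI), the haem-regulated kinase that is abundant in erythroid cells, had 185 ± 9.2 CPM and 207 ± 12.3 CPM (0.17, adjusted p = 0.146), beside the higher erythroid sums given above.

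Eif2ak2 (PKR), the kinase activated by double-stranded RNA and itself induced by interferon, was the kinase that changed. It had 72.3, 68.5, 72.2, 77.1 and 66.3 CPM in WT against 65.2, 47.6, 54.8, 47.4 and 40.3 CPM in Mir483Pat-KO. The groups did not overlap, and the level fell by 0.48 on the log2 scale (−0.7 to −0.27, adjusted p = 0.0144). In the same list of eIF2 kinases and machinery, Eif2s1, which encodes the alpha subunit of eIF2 that the kinases phosphorylate, rose. It had 63.7, 64, 62.1, 63.8 and 62.9 CPM in WT against 76.1, 76.4, 74.1, 81.8 and 70.6 CPM in Mir483Pat-KO, again without overlap (log2 difference 0.26, 0.13 to 0.39, adjusted p = 0.0222). With offsets for GC content and length this difference was 0.096 (adjusted p = 0.5), and the call was lost without WT replicate 3 or 4 or Mir483Pat-KO replicate 2 or 4 (adjusted p from 0.0556 to 0.0754). Eif2ak2 passed in each fit that left out 1 library. The beta subunit gene Eif2s2 had a log2 difference of 0.27 and did not pass (adjusted p = 0.0732), although it did without WT replicate 1 or 2 (adjusted p = 0.0452 and 0.0313), by DESeq2 (0.0438), without the low-count filter (0.036), with the replicate block (0.0345) and with the range as a covariate (0.0343). With GC content and length offsets Eif2s2 was at 0.07 (adjusted p = 0.632). Of the 14 genes in the list, 1 rose and 1 fell, or 14.3% beside 5.19% of all genes.

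The wider pathway was represented by 99 further genes in 8 lists, of which 96 were tested. Of these 96 genes, 5 rose and 3 fell, or 8.33% in all, beside 5.19% of all genes tested, and their median log2 difference was 0.023. The lists, that of the eIF2 kinases and machinery among them, were chosen with earlier results of these data known. Their shares beside those of all genes are therefore descriptive and no test of the lists. In amino acid synthesis and one-carbon metabolism, 1 of 11 genes fell (9.09%, where 2.76% of all genes tested fell). This was Cbs, the cystathionine beta-synthase of transsulfuration, with 181 ± 4.65 CPM in WT against 153 ± 10.6 CPM in Mir483Pat-KO (SD, n = 5 each; −0.24, adjusted p = 0.0416), and its groups did not overlap. The call was lost in 7 of the 10 fits that left out 1 library, those without WT replicate 1, 3, 4 or 5 or Mir483Pat-KO replicate 2, 3 or 4 (adjusted p from 0.0508 to 0.0935), and without the low-count filter (0.0645). Mthfd2, the mitochondrial folate enzyme induced by ATF4, had a log2 difference of 0.28 (adjusted p = 0.109), and Pycr1, of proline synthesis, one of −0.32 (adjusted p = 0.256).

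In amino acid transport, none of the 7 tested of 9 genes passed, although 6 pointed up, with a list median of 0.1. Slc38a2, a system A transporter, was at 0.21 (adjusted p = 0.184). Slc7a5 and Slc3a2, the light and heavy chains of the leucine transporter, were at 0.19 (adjusted p = 0.233) and 0.17 (adjusted p = 0.241). With GC content and length offsets Slc7a5 was at 0.28 and passed (adjusted p = 0.0461). With the range as a covariate Slc7a5 was at 0.094 (adjusted p = 0.533 by edgeR) and Slc3a2 at 0.08 (adjusted p = 0.556). In the lower range alone they were at −0.039 and 0.00092. The list of aminoacyl-tRNA synthetases, which charge tRNAs and include many ATF4 targets, also held the tRNA export gene Xpot. None of its 13 genes passed and the list median was −0.023. Their log2 differences ran from −0.24 to 0.03, the lower end being Tars (adjusted p = 0.0898, 0.0298 without Mir483Pat-KO replicate 1, 0.038 with GC content and length offsets and 0.0385 with the replicate block). Among the 7 mitochondrial chaperones and proteases none passed, with a median of −0.017.

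Of the 13 stress regulators and feedback genes, 1 fell (7.69%, where 2.76% of all genes tested fell). Atf5, a bZIP factor that is translated under eIF2 phosphorylation like Atf4 and is abundant in liver, had 374, 332, 361, 375 and 395 CPM in WT replicates 1 to 5. It had 265, 227, 285, 244 and 281 CPM in the Mir483Pat-KO replicates. Every Mir483Pat-KO value lay below every WT value, and the level fell by 0.5 on the log2 scale (−0.66 to −0.34, adjusted p = 0.00306 by edgeR). With GC content and length offsets the difference was −0.35 (adjusted p = 0.00592). Within the lower range alone, Atf5 was the only gene of the 8 lists to pass (adjusted p = 0.05 as rounded), and it passed in each fit that left out 1 library. Atf4 mRNA stood at −0.013 beside it, and the difference between the genes was not itself tested. The hepatocyte markers also pointed down, with a list median of −0.17.

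**Figure D4:**
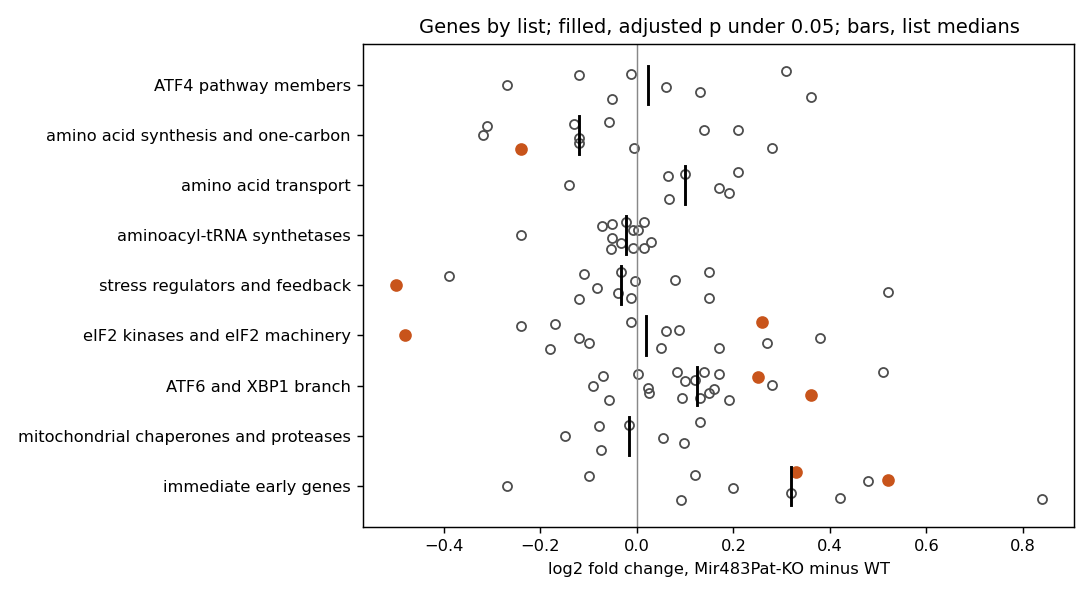
Log2 fold changes (Mir483Pat-KO minus WT) of the tested genes in the member list and in 8 related lists. Filled orange points passed an adjusted p of 0.05, open points did not, and black bars are list medians. Atf5 is the filled point at −0.5 and Eif2ak2 the one at −0.48, and no member is filled.

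The parallel branches of the unfolded protein response, which act through ATF6 and XBP1, held 20 tested genes, of which 2 rose and none fell, or 10% where 2.43% of all genes tested rose and 5.19% passed in either direction. They were Ern1, which encodes the sensor IRE1 alpha (47.9 ± 3.1 CPM in WT against 57.1 ± 3.7 CPM in Mir483Pat-KO, SD, n = 5 each; 0.25, adjusted p = 0.0448), and Sdf2l1, a co-factor of the chaperone BiP (15.3 ± 1.62 and 19.6 ± 2.09 CPM; 0.36, adjusted p = 0.0451). Neither call was stable: that of Ern1 was lost in 9 of the 10 fits that left out 1 library, all but the one without WT replicate 2, and that of Sdf2l1 in 7, those without WT replicate 1, 3, 4 or 5 or Mir483Pat-KO replicate 2, 4 or 5. The highest adjusted p in these fits was 0.129 for Ern1 and 0.109 for Sdf2l1, and without the low-count filter Ern1 was at 0.0575. The log2 difference was positive in 17 of the 20 genes, and in 50.9% of all genes tested, with a median of 0.12. Dnajb9, an XBP1 target, ranged from 17.1 to 42.1 CPM in WT and from 26.3 to 56.6 CPM in Mir483Pat-KO (0.51, adjusted p = 0.186). It passed at 0.80 with the identification number range as a covariate (adjusted p = 0.0105), without the low-count filter (adjusted p = 0.00229) and, narrowly, with the replicate block (adjusted p = 0.05). It did not pass in any of the 10 fits that left out 1 library (adjusted p from 0.0628 to 0.401), nor with GC content and length offsets, where it was at 0.35 (adjusted p = 0.312). The BiP gene Hspa5, named here after its values were seen, had a log2 difference of 0.0015 (adjusted p = 0.995).

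Mir483Pat-KO replicate 2 and WT replicate 2 were each the highest of their group for 15 of the 20 genes, and Mir483Pat-KO replicate 3 was the lowest of the 5 Mir483Pat-KO libraries for 17 of the 20 ATF6 and XBP1 branch genes. In that library Hspa5 was at 689 CPM against 939 to 1158 CPM in the other four, and the chaperone gene Hyou1 at 89.2 CPM against 136 to 197 CPM. In Mir483Pat-KO replicate 3, 4 of the 8 tested members were the highest of their group, as were 3 in replicate 4, with Trib3 at 14.9 CPM and Psat1 at 767 CPM among those of replicate 3, where 1 (Phgdh) was the lowest. Herpud1 (282 CPM against 207 to 214 CPM) was also highest in replicate 3. Hyou1 and Herpud1 were likewise named after their values were seen. In WT replicate 2, 5 of the 8 members were the highest of their group.

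**Figure D5:**
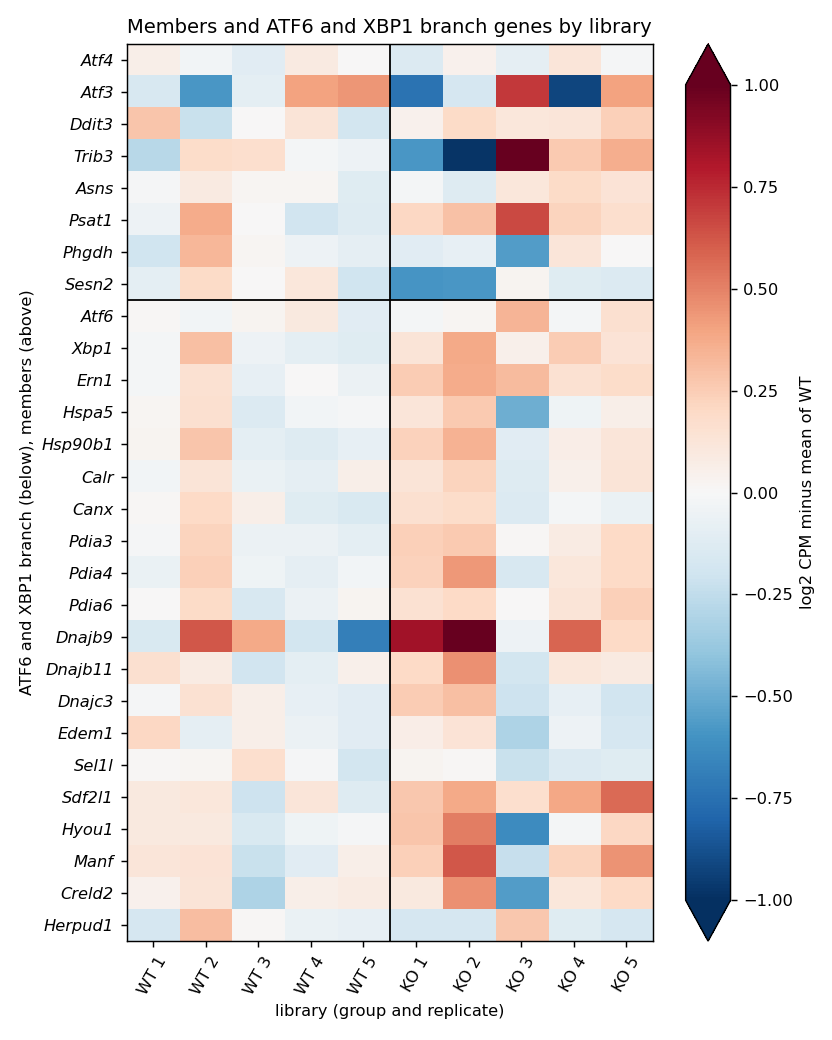
Log2 CPM of each gene minus its mean over the WT libraries, for the 8 tested members (top) and the 20 genes of the ATF6 and XBP1 branch (bottom), with libraries as columns (KO, Mir483Pat-KO) and a colour scale from −1 to 1, beyond which colours saturate. In the column of Mir483Pat-KO replicate 3, the members Trib3 and Psat1 are red and Phgdh (−0.56) is blue. Among the branch genes in that column, Hspa5, Hyou1 and Creld2 are blue, and Atf6 (0.34) and Ern1 (0.32) are on the red side.

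Immediate early genes, which respond to handling and to acute stimuli, were listed because several are induced with Atf3. Of 12 genes 11 were tested, and 2 rose, or 18.2% where 2.43% of all genes tested rose and 5.19% passed in either direction. They were Dusp1, a MAP kinase phosphatase, from 29 ± 4.19 to 41.6 ± 3.36 CPM (SD, n = 5 each; 0.52, adjusted p = 0.00764 by edgeR), without overlap, and Btg2, an antiproliferative gene, from 91.4 ± 11.7 to 115 ± 10.9 CPM (0.33, adjusted p = 0.0458). Dusp1 passed in each fit that left out 1 library, whereas Btg2 did not pass in 7 of them, those without WT replicate 2, 3 or 5 or Mir483Pat-KO replicate 2, 3, 4 or 5 (adjusted p from 0.0682 to 0.134), nor with the range as a covariate (0.0517). The list median was 0.32, and 9 of the 11 genes pointed up. Ier2, a small immediate early gene, pointed down at −0.27 (unadjusted p = 0.0206 and adjusted p = 0.143 by edgeR). Atf3 itself was at −0.051, with the wide interval given above, and was not compared with the list by a test.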

How the data were processed

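Gene-level read counts, deposited as a single table, had been produced by the authors by alignment with STAR to GRCm38 with Ensembl gene models, from TruSeq libraries of polyadenylated RNA. The deposited counts were not normalised. Groups were taken from the genotype labels. The 10 members and the lists of related genes were chosen with earlier results of these data known. Counts were fitted with edgeR 4.0.16 in R 4.3.3 (filterByExpr, TMM scaling, quasi-likelihood F-test, Benjamini-Hochberg adjustment over 14098 genes) on genotype alone. CPM are counts per 1000000 of the TMM-scaled library size, and log2 CPM used a prior count of 2. Intervals are 95% intervals of the fitted log2 difference, from its standard error, and do not give the range of single libraries. Totals of 10831350 to 14765880 counts limit the precision of genes with few counts. P-values measure the spread between single fetuses, and litter is not given in the sources used here. Genes were named by rule: the members, Mir483, the 4 eIF2 kinases, up to 3 genes with the smallest p of each list, and the 3 genes most like Asns. The fit was also run on simulated counts as a check of the code, and the outcome is not reported here. Alternatives were RLE scaling, DESeq2 1.42.0, limma-voom, robust fitting, other filters, a replicate block, the identification number range, GC content and length offsets, glmTreat and each library left out in turn. Single values were compared by exact permutation. Sequences and gene models were from RefSeq (GRCm38.p6) and GENCODE M21, which is not the release used for counting. Whether same-numbered libraries pair was not tested. Their deviations correlated at a mean of 0.0871 (−0.0496 to 0.261), with 2 of 5 pairs over 0.1, against a mean of −0.0217 for other pairs.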

Additional observations from a re-analysis of the deposited data

Results flagged for a closer look

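Among the named genes, 75 groups of 5 libraries were examined by Dixon's criterion, which chance alone meets in about 1 of 20 groups, or 3.75 of 75. In 2 of them a library stood apart from the others of its group, fewer than that number. Psat1 was at 767 CPM in Mir483Pat-KO replicate 3, against 548 to 595 CPM in the other Mir483Pat-KO libraries. Vldlr, a lipoprotein receptor gene in the list of stress regulators, was at 8.35 CPM in WT replicate 1, against 11.9 to 13.2 CPM in the other WT libraries. The log2 difference of Vldlr was −0.39 (edgeR, adjusted p = 0.148), and 0.031 was the adjusted p without Mir483Pat-KO replicate 1.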

How the results depend on the processing

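The count of members past the adjusted p was 0, and became 2 without the low-count filter (Chac1 and Psat1) and 1 with the replicate block (Psat1). Over the fits that each left out 1 library it ran from 0 to 1, the latter without WT replicate 2 (Psat1). With the 1.5-fold threshold it was 1 without the filter (Chac1) and 0 to 0 over the left-out libraries. For all genes, 731 became 1121 by DESeq2, 1258 without the filter, 1338 with the replicate block, 1189 with the identification number range as a covariate, 23 among lower range libraries and 4 by glmTreat, and 279 to 863 with 1 library left out (279 without Mir483Pat-KO replicate 4). With the 1.5-fold threshold, 173 became 321 without the filter, 21 among lower range libraries and 4 by glmTreat, and 97 to 233 with 1 library left out. For the pathway lists, 8 became 13 with the replicate block, 1 in the lower range (Atf5) and 0 by glmTreat, and 3 to 9 with 1 library left out.

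Directions of members that did not pass also turned. With 1 library left out, Atf4 lay between −0.057 and 0.0083 (without Mir483Pat-KO replicates 4 and 1, respectively), and it was at 0.055 with GC content and length offsets. Atf3 lay between −0.32 and 0.095 (without Mir483Pat-KO replicates 3 and 4), and was at 0.045, 0.078 and 0.084 without WT replicate 4, WT replicate 5 and Mir483Pat-KO replicate 1. Trib3 was at −0.13 with the range as a covariate, −0.82 in the lower range and −0.15 without Mir483Pat-KO replicate 3, and at 0.55 without Mir483Pat-KO replicate 2. In the lower range Asns was at −0.11 and Slc7a5 at −0.039. The cause of these changes was not tested. The labels give same-numbered libraries only a shared number, and whether they pair was not tested. The block value is given for that reason alone. The lower range holds fewer libraries, and glmTreat tests against a fold change of 1.5. Depth limits Chac1 and Fgf21. For Atf3 the coefficient of variation was 30.3% in WT and 50.5% in Mir483Pat-KO, and the parts of depth and of spread between fetuses were not separated.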
